A study of Mus musculus with 4 samples.

Results

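Daidzein is a soy isoflavone whose shape resembles oestradiol. Followed here by their symbols in the deposited table were 10 genes, 10 of its 55401 rows. Their protein products have been proposed to sense such compounds, except that of Arnt, which is the partner of the aryl hydrocarbon receptor. Of the 10 genes, 7 belong to the nuclear receptor superfamily (Esr1, Esr2, Esrra, Esrrb, Esrrg, Pparg and Ppard). Gper1 encodes a membrane receptor coupled to G proteins, and Ahr and Arnt encode transcription factors with a PAS domain, so the 10 are receptors and partners of several classes. RNA sequencing covered 4 libraries of cells labelled as female germline stem cells from the ovary of C57BL/6 mice. Both groups were grown with serum and 4 added factors: epidermal growth factor, leukemia inhibitory factor, basic fibroblast growth factor and glial cell line-derived neurotrophic factor. The control group of 2 libraries received the solvent DMSO, and the other 2 libraries received daidzein. The labels mention several daidzein concentrations. They do not state which of them, or which duration, these libraries had, nor the age of the mice. No label says that the replicates were separate cultures, so p-values measure the spread between these samples only, which may be technical.

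Nuclear receptors are transcription factors that bind small lipophilic ligands and then exchange corepressors for coactivators on DNA. The oestrogen receptors alpha and beta bind oestradiol and, among plant compounds, isoflavones, with the beta form known for the higher affinity. In the ovary the beta receptor is the main form of granulosa cells. The oestrogen-related receptors share the DNA-binding fold of the oestrogen receptors but do not respond to oestradiol and drive genes of energy metabolism. PPARs pair with retinoid X receptors and respond to fatty acids, and the aryl hydrocarbon receptor waits in the cytoplasm with HSP90 until a ligand sends it to the nucleus to pair with ARNT.

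Library totals ran from 16230400 to 18537134 counts, and reads fell on 19575 genes. Of 12 germline markers 11 had at most 10 reads over the 4 libraries together, and Dppa3, Pou5f1, Gfra1, Sohlh1 and Figla had 0. The other, Zbtb16, a transcription factor gene of germline stem cells and also of blood cells, had 67 to 93 reads per library, which is 0.74 to 1.03 FPKM. Of 14 markers of ovarian somatic, stromal and epithelial cells 8 had 0 reads, among them Foxl2, Fshr and Cyp19a1. Star had 68 to 107 reads per library (0.96 to 1.47 FPKM) and Amh had 19 to 34 (0.66 to 1.1 FPKM). The summed level of 12 mast cell markers was 787 to 806 FPKM (the deposited level per exonic length and library size) with DMSO and 801 to 831 FPKM with daidzein, nearly all of it from Cpa3 (mean 481 FPKM), Gata2 (244) and Kit (72.5). Of the 12, 7 had at most 10 reads over the 4 libraries, namely Hdc, Cma1 and, with 0 reads, Fcer1a, Tpsb2, Tpsab1, Mcpt4 and Mrgprb2. The summed level of 11 markers of other blood cells was 52.6 and 53.8 FPKM with DMSO and 48.5 and 51.6 FPKM with daidzein, and Cd3e and Ly6g had 0 reads. The germline sum was 1.21 and 1.23 FPKM with DMSO and 0.94 and 0.9 FPKM with daidzein, and the ovarian somatic sum was 2.45 and 2.55 FPKM against 1.73 and 2.87 FPKM. Apart from Zbtb16, the listed transcripts of the labelled cell type were at or near 0 in both groups. The part of cell composition in the values that follow was not tested, and in bulk RNA a smaller number of cells of a type and less RNA per cell cannot be told apart.

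The promoter windows of a member with a high, a low and no transcript level are shown first, as the sequence context of the values that follow. RefSeq windows on GRCm38.p6, from 250 bases before to 50 bases after a transcript start, were found for 9 of the 10 members, 16 windows in all, and not for Ahr. The window of Esrra, the most abundant member, that of Esr1 and that of Esrrb, which had 0 reads, are printed 5′ to 3′ with each CG dinucleotide in capitals.
Esrra (chr19:6921759-6922058, minus strand): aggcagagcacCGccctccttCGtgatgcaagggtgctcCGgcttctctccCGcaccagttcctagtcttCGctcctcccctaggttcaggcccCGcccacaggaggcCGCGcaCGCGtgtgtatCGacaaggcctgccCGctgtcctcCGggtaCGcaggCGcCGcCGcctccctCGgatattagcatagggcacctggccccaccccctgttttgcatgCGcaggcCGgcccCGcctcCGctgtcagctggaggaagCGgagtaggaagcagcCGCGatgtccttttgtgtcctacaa
Esr1 (chr10:4611739-4612038, plus strand, first of 2 windows): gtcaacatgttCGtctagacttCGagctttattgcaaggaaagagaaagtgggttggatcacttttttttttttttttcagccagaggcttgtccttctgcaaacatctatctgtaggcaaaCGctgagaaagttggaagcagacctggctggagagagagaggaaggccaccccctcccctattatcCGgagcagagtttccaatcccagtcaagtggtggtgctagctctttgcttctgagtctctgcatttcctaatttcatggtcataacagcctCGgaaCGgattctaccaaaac
Esrrb (chr12:86360867-86361166, plus strand, first of 2 windows): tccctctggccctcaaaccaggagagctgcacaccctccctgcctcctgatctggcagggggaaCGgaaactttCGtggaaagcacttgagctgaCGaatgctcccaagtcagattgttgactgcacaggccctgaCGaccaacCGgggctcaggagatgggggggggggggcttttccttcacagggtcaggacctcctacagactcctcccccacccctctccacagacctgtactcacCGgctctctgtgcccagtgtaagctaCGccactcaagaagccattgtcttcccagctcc

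The Esrra window held 25 CG dinucleotides, more than 81.6% of the 32851 windows in the RefSeq table, where the median was 7. The 2 Esr1 windows held 6 and 12, and the 2 Esrrb windows held 7 each. Ppard, with a moderate transcript level, had 27 and Arnt had 19. Windows rich in CG also occurred at members with almost no reads, as 44 in the first window of Pparg and 15 to 22 in the 4 windows of Esrrg show. The full oestrogen response element (the half-site GGTCA, 3 bases of any kind and its reverse complement), searched on both strands like the other motifs, was found in 0 of the 16 member windows and in 0.07% of all windows. The element of oestrogen-related receptors, TCAAGGTCA, was found in 0 of 16 and in 0.423% of all windows, and the half-site AGGTCA, which it contains, in 2 of 16, both of Pparg, and in 16.3% of all. The core bound by AHR with ARNT, GCGTG, was found in 7 of 16 windows, at Esr1, Esrra, Esrrg, Pparg, Ppard and Arnt, and in 32.4% of all windows. These matches describe letters in a window and are not binding sites.

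Which members were expressed was clear from their levels, which fell into 3 tiers. Esrra, Arnt, Ppard and Ahr were at 1.73 FPKM or more in every library, Esr1 was at 0.17 to 0.28 FPKM, and Gper1, Pparg, Esr2, Esrrb and Esrrg had 0 to 5 reads in all 4 libraries together. By mean FPKM the order was Esrra (14.2), Arnt (6.93), Ppard (4.97), Ahr (2.01) and Esr1 (0.23). The ranges of these 5 over the 4 libraries did not overlap between neighbours, and the range of Esr1 also lay above that of Gper1. From Gper1 down to Esrrg the ranges of neighbours overlapped, so no order among the lowest 5 can be read. Esrra alone made up 47.6% to 52.3% of the summed FPKM of the 10 members, Arnt 23.4% to 25.4%, Ppard 16.3% to 18.7% and Ahr 5.96% to 8.4%. Esr1 made up 0.585% to 1.03%.

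**Figure D1:**
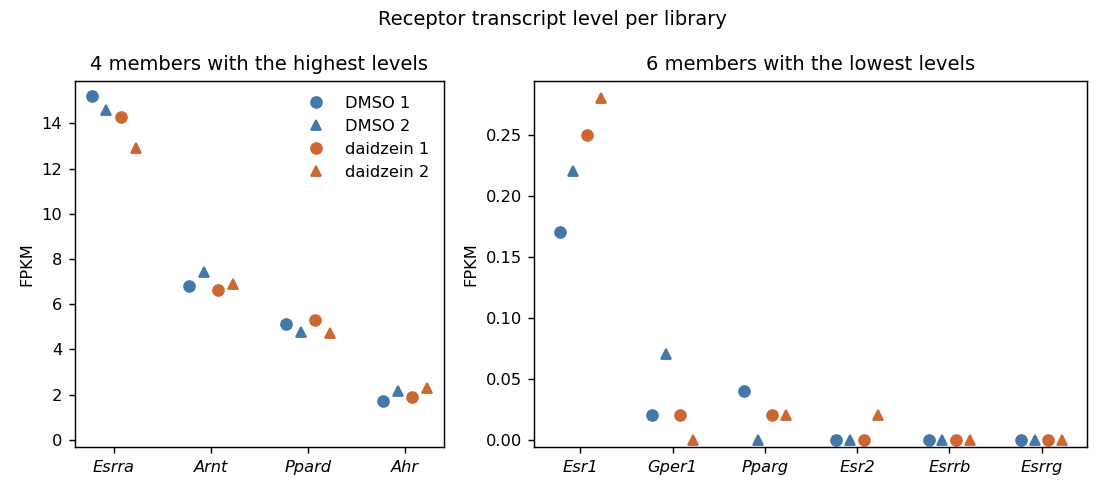
FPKM of each member in each library, with the higher 4 members on the left and the lower 6 on the right on a finer scale. Blue marks are DMSO and orange marks daidzein, circles replicate 1 and triangles replicate 2. Esrra lies between 12.9 and 15.2 FPKM, while Esrrb and Esrrg lie at 0 in all 4 libraries.

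Esr1 encodes oestrogen receptor alpha (ENSMUSG00000019768, GRCm38 chromosome 10, 4611593 to 5005614, plus strand, protein-coding). With DMSO it had 37 reads in replicate 1 and 51 in replicate 2, and with daidzein 59 and 71. Both daidzein libraries lay above both DMSO libraries, and within each group replicate 2 was the higher. Scaled to TMM-normalized library size the level was 2.63 ± 0.481 CPM (counts scaled to the library total) with DMSO and 3.63 ± 0.254 CPM with daidzein (SD, n = 2 each). A daidzein-over-DMSO fold of 1.38 with a 95% interval of 0.958 to 1.98 did not pass edgeR's quasi-likelihood test, with an unadjusted p of 0.0805 and a Benjamini-Hochberg adjusted p of 1.00. The log2 difference of 0.46 was 0.29 without DMSO replicate 1. Over its exonic length of 13661 bases, 218 reads in 4 libraries are few, and the interval leaves room for no change and for nearly a doubling at this depth. Of all genes with a read, 37.2% had a lower mean FPKM than Esr1.

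Esr2 encodes oestrogen receptor beta (ENSMUSG00000021055, chromosome 12, 76120419 to 76177259, minus strand). Its only read, 1 in all, came from daidzein replicate 2. A pseudogene inside it on the same strand, Gm7862, had 19 to 31 reads per library, so the single Esr2 read lies beside a locus that was counted separately. Pooled over the 4 libraries Esr2 stood at 0.0145 CPM. A difference in Esr2 was not detectable at this depth.

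Gper1 encodes the membrane oestrogen receptor that signals through G proteins (ENSMUSG00000053647, chromosome 5, 139423151 to 139427800, plus strand). It had 1 and 3 reads with DMSO and 1 and 0 with daidzein. The ratio per depth of daidzein to DMSO was 0.233. Counting error alone gives it a 95% interval, exact binomial, of 0.00474 to 2.36, so that no direction can be given. Gper1 lies across from 3110082I17Rik on the other strand, which had 2912 to 3271 reads per library. No source used here gives the strand setting of the counting, so the few Gper1 reads may belong to that neighbour.

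Esrra encodes oestrogen-related receptor alpha, a regulator of mitochondrial genes (ENSMUSG00000024955, chromosome 19, 6910977 to 6921840, minus strand). With DMSO it had 15.2 FPKM in replicate 1 and 14.6 in replicate 2, and with daidzein 14.3 and 12.9. The daidzein libraries lay below the DMSO libraries, by a small gap between DMSO replicate 2 and daidzein replicate 1. The fold was 0.913 with an interval of 0.818 to 1.02, from 65.7 ± 2.36 to 60.1 ± 4.68 CPM (SD, n = 2 each), and did not pass, with an edgeR adjusted p of 1.00 and an unadjusted p of 0.104. Its log2 difference of -0.13 was -0.05 without daidzein replicate 2 and -0.21 without daidzein replicate 1. Esrra overlaps Trmt112 on the opposite strand, which had 210 to 246 reads per library, against 1057 to 1100 for Esrra. In every library the FPKM of Esrra was 46.1 to 89.4 times that of Esr1, the ratio being 89.4 and 66.2 with DMSO and 57.1 and 46.1 with daidzein.

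The other 2 oestrogen-related receptors, known from pluripotent cells (Esrrb) and from oxidative tissues such as heart (Esrrg), were not detected. Esrrb (ENSMUSG00000021255, chromosome 12, 86361117 to 86521628, plus strand) and Esrrg (ENSMUSG00000026610, chromosome 1, 187608791 to 188214885, plus strand) had 0 reads in every library. Over the 4 libraries together 0 reads allow up to 3 counts, which is 0.0434 CPM. Esrra was at 62.7 CPM on the same pooled scale.

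Ppard encodes PPAR delta, a fatty acid sensor found in most tissues (ENSMUSG00000002250, chromosome 17, 28232700 to 28301474, plus strand). It had 5.1 and 4.77 FPKM with DMSO and 5.3 and 4.73 FPKM with daidzein, and the groups overlapped. The fold was 1.02 with an interval of 0.891 to 1.16 and an edgeR adjusted p of 1.00, so a change of 1.2-fold or more in either direction lies outside the interval. Pparg (ENSMUSG00000000440, chromosome 6, 115360951 to 115490399, plus strand), the regulator of fat cell formation, had 2 and 0 reads with DMSO and 1 and 1 with daidzein, too few for a fold. Ppara, the liver form, was not among the 10 and had 0 reads. Of the 3 PPAR genes only Ppard was thus measurable in these libraries.

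Ppard needs a retinoid X receptor as partner. Rxrb had 18.9 to 20.6 FPKM and was the highest of the 49 nuclear receptor genes, Rxra had 3.03 to 3.3 FPKM, and Rxrg had 0 reads. The FPKM of Rxrb was 3.65 to 4.13 times that of Ppard in each library, and that of Rxra 0.572 to 0.692 times. Rxra had a fold of 0.920 (95% interval 0.787 to 1.08) and Rxrb of 0.948 (0.859 to 1.05), and neither passed.

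Ahr encodes the aryl hydrocarbon receptor, a sensor of dioxins, tryptophan products and plant compounds (ENSMUSG00000019256, chromosome 12, 35497974 to 35535038, minus strand). It had 173 and 229 reads with DMSO and 198 and 260 with daidzein. In FPKM this was 1.73 and 2.17 against 1.87 and 2.28, so replicate 2 was the higher in both groups and the groups overlapped. The fold was 1.06 with an interval of 0.859 to 1.32 and an edgeR adjusted p of 1.00. The direction of this small difference turned without DMSO replicate 1 (log2 -0.06) and without daidzein replicate 2 (log2 -0.05).

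Arnt, the partner that Ahr shares with the hypoxia factor Hif1a (ENSMUSG00000015522, chromosome 3, 95434388 to 95497240, plus strand), had 6.79 and 7.43 FPKM with DMSO and 6.63 and 6.88 with daidzein. DMSO replicate 2 was the highest and the groups overlapped. The fold was 0.95 (95% interval 0.85 to 1.06), with an edgeR adjusted p of 1.00. Within each library Arnt was 3.02 to 3.92 times as high as Ahr in FPKM, and 0.436 to 0.483 times as high as Hif1a.

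In all, 5 of the 10 members had enough reads to test, 3 higher and 2 lower with daidzein, and 0 passed edgeR at an adjusted p of 0.05. Over all 11700 genes tested 2 passed, which is 0.0171%. At an unadjusted p under 0.05 there were 0 of the 5 members, where 2.91% of all tested genes reached that level, and DESeq2 and limma on FPKM also called 0 members. With the replicate number as a block edgeR called 0 of the 5, where 0.231% of all tested genes passed, and 1, Esrra, had an unadjusted p under 0.05 (0.0372), where 6.39% of all tested genes did. Both daidzein libraries were above both DMSO libraries for 1 of the 5, Esr1, where 14.7% of all tested genes had that arrangement, and below for 1 of the 5, Esrra, where 15% did. The median log2 difference was 0.02 over these 5 and 0.00 over all tested genes. The widest interval was that of Esr1, which had the fewest reads of the 5.

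**Figure D2:**
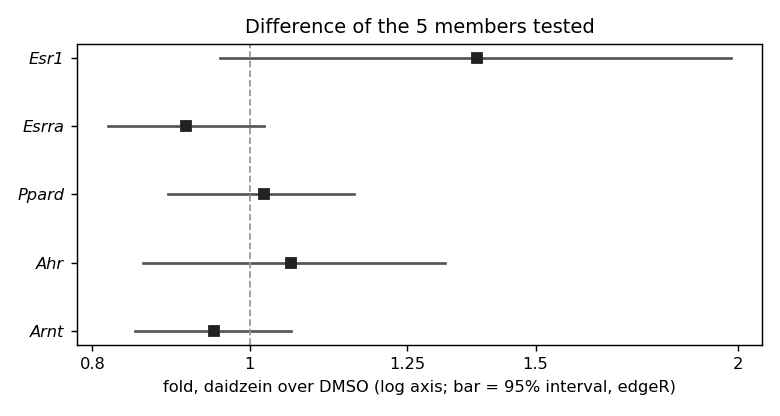
Fold of daidzein over DMSO for the 5 members tested, on a log axis, with squares for the estimate and bars for the 95% interval of the edgeR fit on 2 libraries per group. Every bar crosses 1, and that of Esr1 (0.958 to 1.98) is the widest.

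Set among all nuclear receptor genes, Esrra ranked 4 of 49 by mean FPKM, after Rxrb (19.7), the retinoic acid receptor gene Rara (15.3) and the orphan receptor gene Nr2f6 (15.0). Ppard ranked 9, Esr1 19 and Pparg 24. Esr2, at rank 26, shared its mean level with Thrb and Nr3c2, and Esrrb and Esrrg were among 22 of the 49 genes with 0 reads. Among steroid receptor genes, the progesterone receptor gene Pgr had 0 reads, while Nr3c1, which encodes the glucocorticoid receptor, had 8.32 to 9.9 FPKM. Of the 49 genes 19 were tested, 6 higher and 13 lower, and 0 passed by edgeR, with 2 at an unadjusted p under 0.05, a level that 2.91% of all tested genes reached. These 2 were Nr1d2, a clock repressor, with a fold of 1.3 (95% interval 1.07 to 1.59), and the thyroid hormone receptor gene Thra, with 0.860 (0.744 to 0.994). The median log2 difference of the 19 was -0.04. Both daidzein libraries were below both DMSO libraries for 7 of the 19, which is 36.8%, beside 15% of all tested genes, and above for 2, which is 10.5%, beside 14.7%. Esrra and Esr1 are among these.

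**Figure D3:**
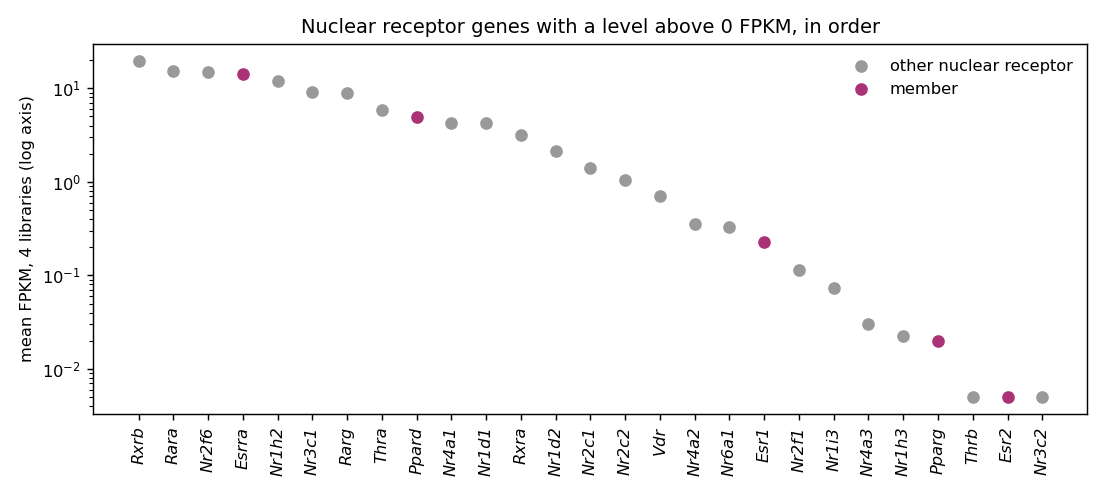
Mean FPKM over the 4 libraries, on a log axis, of the nuclear receptor genes with a level above 0, in order of level. Members are purple and other receptors grey. Esrra is at rank 4, Ppard at 9, Esr1 at 19, Pparg at 24 and Esr2 at 26.

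Nuclear receptor and PAS genes whose pattern over the 4 libraries was most like that of a member were found by the distance between log2 CPM values centred on each gene's mean, among 25 candidates per member. With 4 libraries and 2 groups this only describes these samples. Closest to Esr1 was Nr1d2 (distance 0.20 on the log2 scale, where the median candidate was at 0.61). Both genes were lowest in DMSO replicate 1 and highest in daidzein replicate 2. Closest to Esrra were Rarg (0.08) and Nr4a1 (0.09), against a median of 0.29. Closest to Ahr were Nr2c2 (0.12) and Hif1a (0.18), against 0.38, and like Ahr both were higher in replicate 2 than in replicate 1 of each group. Closest to Arnt were Rxra (0.10) and Nr3c1 (0.11), and closest to Ppard were Rxrb (0.14) and Rara (0.15).

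**Figure D4:**
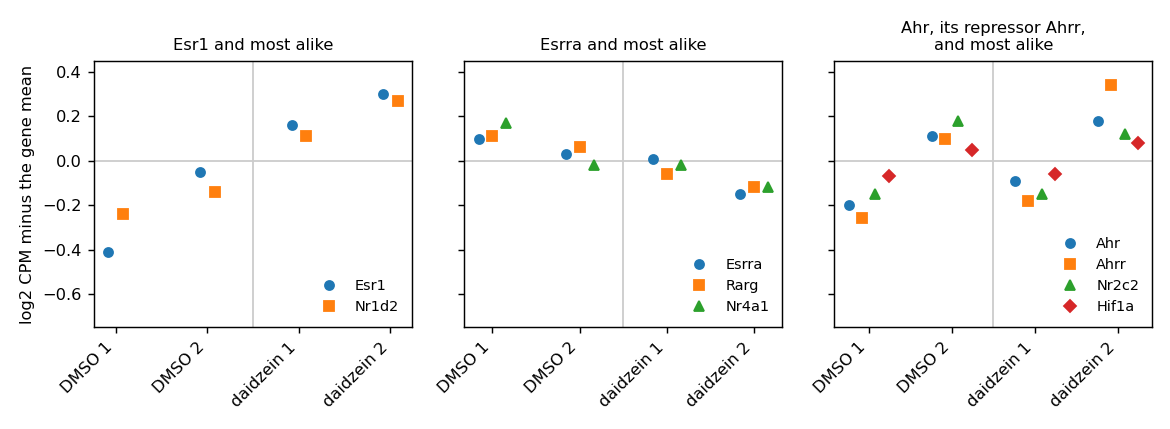
Log2 CPM minus the gene's own mean in each library for Esr1, Esrra and Ahr, each with the nuclear receptor or PAS genes most like it, and for the Ahr repressor Ahrr. Esr1 and Nr1d2 are both above 0 in the daidzein libraries only, while Ahr and Ahrr are above 0 in replicate 2 of both groups.

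Genes that the aryl hydrocarbon receptor is known to control showed no common direction, 3 of those tested being higher and 5 lower. Cyp1a1 and Cyp1b1, the xenobiotic-metabolizing oxidases that serve as its usual readouts, had 0 reads in all 4 libraries, which allows up to 3 counts or 0.0434 CPM each over the 4 libraries together. Ahrr, the feedback repressor it induces, had 40 and 55 reads with DMSO and 45 and 71 with daidzein, a fold of 1.14 (95% interval 0.772 to 1.68). Tiparp, an ADP-ribosylating repressor of the receptor, had 10.7 and 10.8 FPKM against 10.0 and 10.6, a fold of 0.962 (0.857 to 1.08). Nqo1, a quinone reductase also driven by Nrf2, had a fold of 0.962 (0.825 to 1.12). The promoter windows of Ahrr and Cyp1a1 are printed 5′ to 3′ on the strand of the gene, with the core GCGTG in capitals, to show where it lies at a target with reads and at one without.
Ahrr (chr13:74292282-74292581, minus strand): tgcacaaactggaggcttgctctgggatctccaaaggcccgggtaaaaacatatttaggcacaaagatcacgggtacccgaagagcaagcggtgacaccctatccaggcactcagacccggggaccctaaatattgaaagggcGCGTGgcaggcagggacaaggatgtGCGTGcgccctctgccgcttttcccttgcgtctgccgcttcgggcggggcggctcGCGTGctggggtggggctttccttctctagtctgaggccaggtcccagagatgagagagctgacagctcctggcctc
Cyp1a1 (chr9:57697363-57697662, plus strand): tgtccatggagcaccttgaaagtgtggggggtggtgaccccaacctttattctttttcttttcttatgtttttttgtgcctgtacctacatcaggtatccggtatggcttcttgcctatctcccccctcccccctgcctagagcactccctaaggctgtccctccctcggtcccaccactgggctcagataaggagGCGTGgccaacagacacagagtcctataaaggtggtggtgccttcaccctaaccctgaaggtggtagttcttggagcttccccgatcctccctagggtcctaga

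The window of Ahrr held 3 cores and that of Cyp1a1 1, and the core was found in 32.4% of all windows. It was thus present at a gene with reads and at one without, which describes these windows only. Of 19 listed target genes 7 had 0 reads and 8 were tested, with a median log2 difference of -0.06. By edgeR 0 rose and 1 fell, where 0.0171% of all tested genes were called. That gene was Fos, an AP-1 subunit induced by many growth and stress signals, with 26.9 and 19.5 FPKM against 11.8 and 13.3 FPKM, a fold of 0.542 (95% interval 0.457 to 0.643) and an adjusted p of 0.00551 by edgeR. By DESeq2 its fold was 0.541 with an adjusted p of 0.9998 over the same genes, and 0.542 with an adjusted p of 0.000103 over all genes with a read. By limma on log2(FPKM + 1) its fold was 0.566 with an adjusted p of 0.665. No other listed target of the receptor passed. The list was written with earlier results of these data known. The call of Fos beside the share of all genes is thus no result about the receptor's targets as a set.

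Of 22 listed targets of the oestrogen receptors, 5 had 0 reads, among them Pgr and Greb1, which are the most used readouts of oestrogen receptor alpha. In the 14 tested, 4 were higher and 10 lower, 0 passed by edgeR and 0 had an unadjusted p under 0.05, and folds ran from 0.914 to 1.06 with a median log2 difference of -0.04. Igfbp4, which encodes a binding protein of insulin-like growth factors, was the most abundant, at 212 to 230.2 FPKM, with a fold of 1.00 (95% interval 0.924 to 1.09). Susd3, a membrane protein gene known from oestrogen receptor positive breast cells, had a fold of 0.914 (0.804 to 1.04). Many of these genes have other regulators in blood cells, such as Myc and Myb, and were not chosen for this cell type.

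Targets of the oestrogen-related receptors, mostly genes of the citric acid cycle and respiratory chain, were abundant and differed little. Of 20 listed, 19 were tested, 14 higher and 5 lower, with folds of 0.972 to 1.05 and a median log2 difference of 0.02. By edgeR 0 passed, and 0 had an unadjusted p under 0.05. Idh3a, a subunit of isocitrate dehydrogenase, had 67.8 to 70.4 FPKM and a fold of 1.03 (95% interval 0.955 to 1.11). Atp5b, a subunit of ATP synthase, had 605 to 616 FPKM and a fold of 0.991 (0.923 to 1.06). As estimates these folds were nearer to 1 than that of Esrra itself, 0.913. The interval of Esrra (0.818 to 1.02) overlaps those of Idh3a and Atp5b, and a difference between Esrra and its targets was not tested.

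Of 24 listed PPAR targets 15 were tested, 6 higher and 9 lower, with folds of 0.885 to 1.17 and a median log2 difference of 0.00. By edgeR 0 passed and 0 had an unadjusted p under 0.05. Abcg1, a cholesterol exporter, had 1.07 and 1.09 FPKM with DMSO and 1.33 and 1.2 with daidzein, a fold of 1.17 (95% interval 0.935 to 1.46). Fabp5, a fatty acid carrier that delivers ligand to PPAR delta, had 42.4 to 45.9 FPKM and a fold of 1.04 (0.953 to 1.14).

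Transcripts of the chaperones that hold receptors ready were all measurable. All 8 chaperone genes listed were tested, 7 higher and 1 lower, with folds between 0.970 and 1.04, and 0 passed by edgeR or had an unadjusted p under 0.05. Hsp90ab1, the chaperone that holds the aryl hydrocarbon and steroid receptors, had 2259 to 2380 FPKM and a fold of 1.00 (95% interval 0.931 to 1.08). Of 21 coregulator genes 20 were tested, 7 higher and 13 lower, with folds of 0.874 to 1.13 and again 0 passed or had an unadjusted p under 0.05 by edgeR. Ppargc1b, a coactivator of oestrogen-related receptors, had 4.46 and 4.36 FPKM with DMSO and 3.85 and 3.87 with daidzein, a fold of 0.874 (0.738 to 1.04). The coregulator gene left untested, Ppargc1a, had 0 reads in every library. Of 16 PAS genes 9 had 0 reads and 7 were tested, 5 higher and 2 lower, with 0 passing and 0 at an unadjusted p under 0.05. Of 11 genes of the Gper1 route 6 were tested, 2 higher and 4 lower, with folds of 0.946 to 1.06 and 0 passing or at an unadjusted p under 0.05. The G protein subunit gene Gnai2 of that route had 179.8 to 184 FPKM, while the receptor gene itself had 5 reads.

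**Figure D5:**
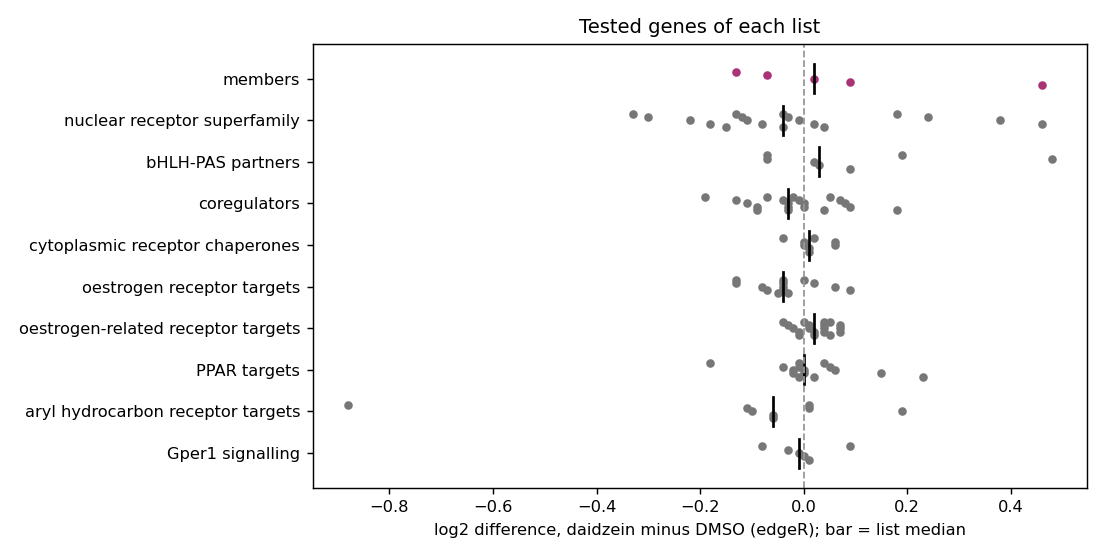
Log2 difference, daidzein minus DMSO, of each tested gene in the members and in 9 lists of partners and targets, with a black bar at the list median. The medians lie between -0.06 and 0.03, and the single point at -0.88 is Fos.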

How the data were processed

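The authors deposited read counts per gene for 4 libraries (whole numbers with unequal totals, so not normalized) and FPKM values. Named without role or order, per the submitters' processing notes, are mm9, DESeq2, HTSeq 0.6.1 and HISAT2 2.0.1. The table's coordinates are those of GRCm38: 55141 of 55401 genes had a GENCODE M21 identifier, with an identical start for 99.61%. For 100% of 65326 FPKM values the deposited value was within 0.01 of count over length and library total.

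The test on counts was that of edgeR 4.0.16 under R 4.3.3 (quasi-likelihood F test, TMM, default filterByExpr, Benjamini-Hochberg over 11700 genes, adjusted p of 0.05), with 95% intervals of folds from that fit. All 4 libraries entered, grouped by title, without the replicate number. Alternatives were DESeq2 1.42.0, other filters, no TMM, robust estimation, a replicate block, each library left out and limma 3.58.1 on log2(FPKM + 1). The main edgeR fit, and no other step, was also run on simulated counts with known folds. Floors of 3 counts and intervals of single counts cover counting error only. Library totals of 16230400 to 18537134 set the precision. Motifs were searched in RefSeq promoter windows of GRCm38.p6. All 10 members are named. The rule for other names gives, per list, the 4 genes with the smallest p and the 2 with the highest FPKM, besides 12 fixed genes. Those tested in the main fit were recomputed under each alternative whose filter kept them, and only some are described. Gm7862, 3110082I17Rik, Trmt112, Thrb, Nr3c2, Nr2f6, Myb, Ppargc1a and markers were named after their values were seen. Members and lists were chosen with earlier results of these data known.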

Additional observations from a re-analysis of the deposited data

How the results depend on the processing

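The count of members called was 0 under every alternative run, with adjusted p of the 5 tested members from 0.747 to 1.00 over edgeR, DESeq2 and limma. Esrra had an unadjusted p of 0.0372 with the replicate number as a block by edgeR, with an adjusted p of 0.747 (95% interval of the fold 0.838 to 0.994). By edgeR 2 other values of members had an unadjusted p under 0.05: Esr1 without the filter on low counts (p of 0.043, adjusted p of 0.976, interval 1.01 to 1.89) and Esrra without daidzein replicate 1 (p of 0.0382, adjusted p of 0.9998, interval 0.752 to 0.992). Of 59 recomputed log2 differences of the 5 members 4 changed sign, all with 1 library left out. Ranges with a library left out were 0.29 to 0.67 for Esr1, -0.21 to -0.05 for Esrra, -0.07 to 0.11 for Ppard (-0.03 without DMSO replicate 2), -0.06 to 0.26 for Ahr (-0.05 without daidzein replicate 2) and -0.13 to -0.01 for Arnt. A lone library of a group is assumed there to vary like the others. Of 610 values of 51 other named genes 2, both of Fos, lost their call and 608 kept theirs or stayed without one, while 35, none of them past the threshold, changed sign. The count of 1 list gene was 0 by DESeq2 on the same genes, 0 by limma on FPKM and 1 by DESeq2 over all genes with a read. Over all genes the count of 2 was 11 without a filter, 1 with the stricter filter of 5 CPM, 1 by DESeq2 on the same genes, 0 by limma on FPKM (461 at an unadjusted p under 0.05), and 27 (0.231%) with the replicate block, and 1 to 17 when 1 library was omitted. It was 2 by DESeq2 over all genes with a read, an alternative chosen after seeing the data. The cause of these changes was not tested. No label pairs same-numbered libraries, so the replicate block was run as an alternative only. The deviations of same-numbered libraries had a correlation of 0.09. The Gper1 ratio was 0.16 to 0.485 with a library left out, and could not be given without daidzein replicate 1. The order of the 10 members by CPM was that by FPKM. Depth limits Esr1, and leaves Esr2, Gper1, Pparg, Esrrb and Esrrg without a test.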
